A study of Ovis aries with 2 samples.

Results

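ATP-binding cassette (ABC) genes were measured in the granulosa cell layer of Hu sheep ewes fed at 2 levels. Members were the gene names made of ABC, a subfamily letter from A to G and a number, and 39 such names are described here, of 15490 gene names in the deposited table. They hold 58 transcript entries, whose reads and FPKM were summed per name. FPKM is the read level per kilobase of the authors' transcript model and per unit of sequencing depth. It can be compared between genes as far as their models hold.

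Ewes of both groups were multiparous, 3 to 4 years old and in the luteal phase of the cycle. The supplemented group (8 ewes) was given 1560 g of feed per ewe per day, which is 1.5 times the maintenance diet. The restricted group (8 ewes) was given 520 g, which is 0.5 times maintenance. RNA came from granulosa cells scraped from the visible follicles above 2.5 mm in diameter, and the number of ewes behind each library is not stated in the labels. With 1 library for each diet group, neither the spread between ewes nor the effect of diet can be tested. Recovered reads numbered 9426679 in the supplemented library and 11299773 in the restricted one.

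ABC proteins share a nucleotide-binding cassette that hydrolyses ATP. In subfamilies A to D and G the cassette is joined to membrane-spanning segments and drives lipids, drugs, conjugates, peptides or metal complexes across a membrane. Subfamilies E and F have no membrane segments and work on ribosomes. In the follicle, granulosa cells take up lipoprotein cholesterol for steroid synthesis, and cholesterol export through ABCA1 and ABCG1 opposes that uptake.

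The ABC genes did not all differ in the same direction. A gene was called measured at a mean of at least 1 FPKM over both libraries, which 22 of the 39 members reached. By size, meaning log2((supplemented FPKM + 1) / (restricted FPKM + 1)) at or beyond 1 or -1, 4 of these 22 were higher in the supplemented library and 0 were lower. The same rule called 4.59% of the 10716 measured gene names higher and 2.18% lower. The higher members were ABCG2, ABCA6, ABCG1 and ABCC4. By the exact 95% interval of the read ratio, which covers counting error alone, 10 of the 22 lay wholly above 1 and 7 wholly below it. Among the measured gene names of the whole table the shares were 21.7% above and 38.5% below. Over the 39 members, all with reads, 11 lay above and 8 below, beside 19.3% and 30% of all 14341 gene names with reads. The log2 ratio was above 0 in 13 of the 22 members and in 40.6% of all measured gene names. The median log2 ratio was 0.11 over the 22 members and -0.09 over all measured gene names. The first of these turned to -0.040 with a filter of 5 mean FPKM and to -0.0089 with the most abundant entry per name. ABCA1, ABCA5 and ABCA6 were measured through the supplemented library alone, since they stood under 1 FPKM in the restricted one. ABCC9, with a log2 ratio of -1.14, fell short of the filter, and without a filter 1 member was lower by size. When libraries were scaled to equal total reads, the median of all measured genes moved from -0.09 to 0.10, and ABCB10 and ABCD3 changed side (log2 ratios of -0.04 and -0.12 as deposited, 0.14 and 0.06 so scaled).

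**Figure D1:**
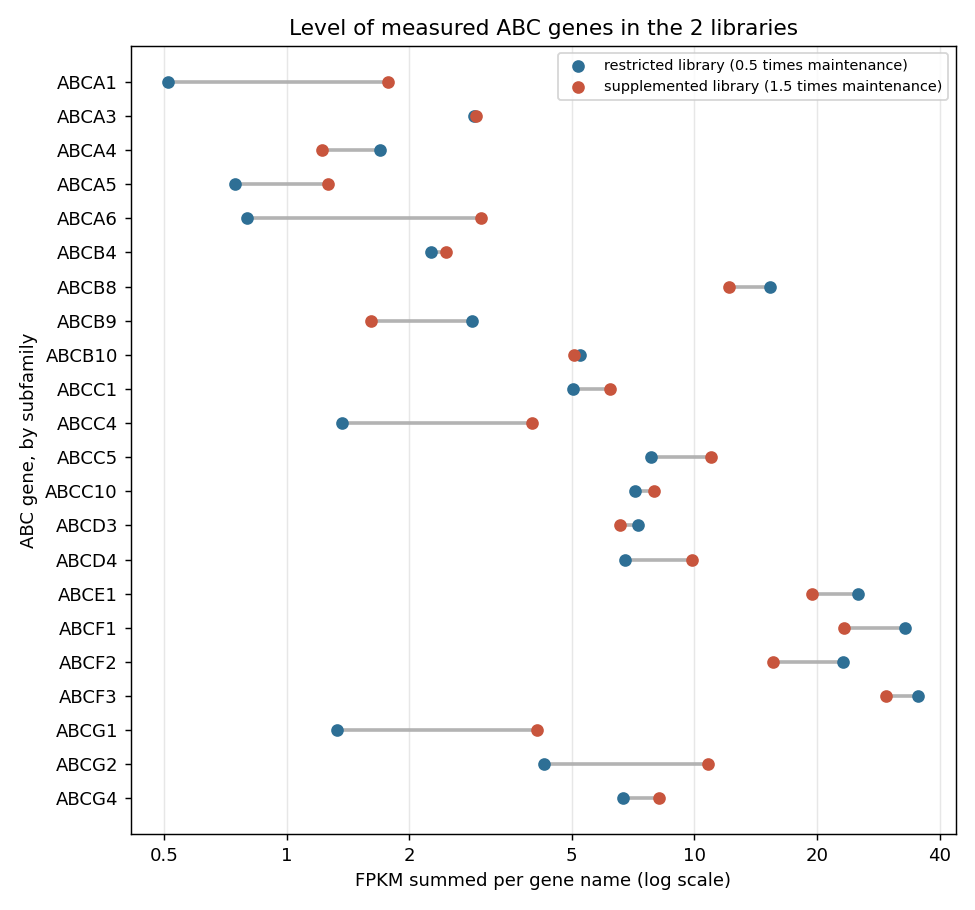
FPKM (log axis) of 22 measured ABC genes in the restricted (blue) and supplemented (red) libraries, 1 library per diet group, with a grey line joining the 2 values of a gene. ABCA1, ABCA6, ABCC4, ABCG1 and ABCG2 have the longest lines to the right.

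**Figure D2:**
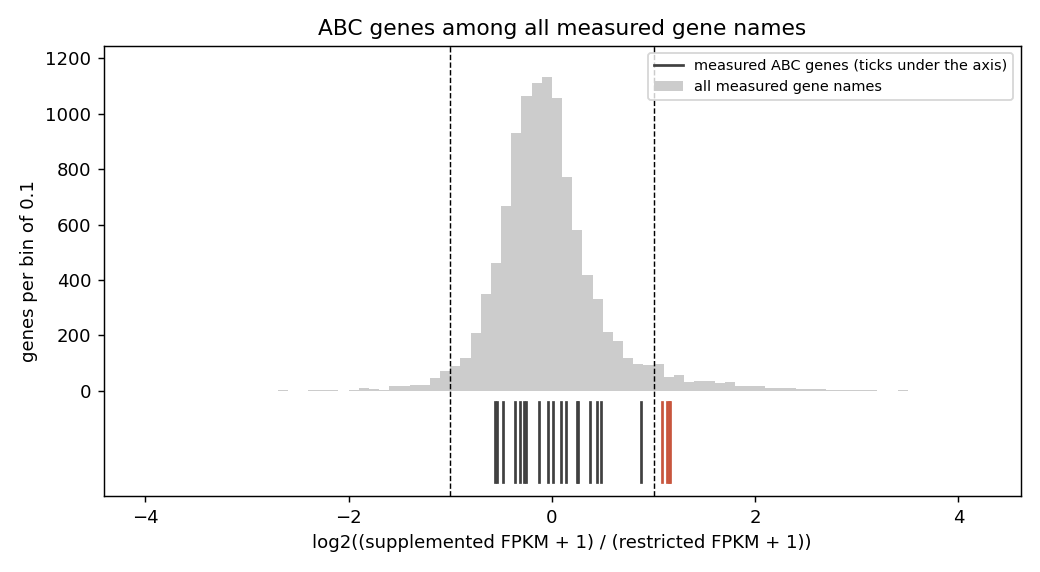
Number of measured gene names per bin of the log2 ratio (grey bars) with 22 measured ABC genes as ticks under the axis, red at or beyond 1 and dark grey below it, and dashed lines at both thresholds. The 4 red ticks lie between 1.08 and 1.16.

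Sums were taken for subfamilies A, C, E, F and G. Subfamily F was the most abundant of these in both libraries, at 68.3 FPKM in the supplemented and 91.3 FPKM in the restricted one, over 3 genes. Subfamily A, with 10 genes, stood at 10.7 against 6.999 FPKM, and subfamily G, with 5 genes, at 23.2 against 12.5 FPKM. The sum of A depends on the transcript model of ABCA1, described below. Subfamily C, with 11 genes, stood at 30.2 against 23.6 FPKM. Subfamily E, which is the single gene ABCE1, stood at 19.4 against 25.2 FPKM. Levels were thus higher in the supplemented library for A, C and G and lower for E and F, but E and F turned higher when values were centred on granulosa cell markers. That centring sets the median of 12 granulosa genes, -1.03 as deposited, to 0, and was chosen after seeing the data.

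In reads, subfamily A was 1.94-fold higher in the supplemented library (95% counting interval 1.80 to 2.09), G 1.69-fold higher (1.54 to 1.86) and C 1.21-fold higher (1.14 to 1.28). Subfamily F was 1.35-fold lower (1.29 to 1.41) and E 1.30-fold lower (1.18 to 1.43), where both turned higher with values centred on granulosa cell markers. The value of A rested largely on ABCA1, which held 1178 of 2062 supplemented reads and 352 of 1099 restricted reads, and without that gene A was 1.23-fold higher (1.11 to 1.35). With 1 gene left out in turn, G ran from 1.41 without ABCG2 to 2.56 without ABCG4. The ratio of C ran from 1.12 to 1.28 and that of F from 0.693 to 0.767.

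**Figure D3:**
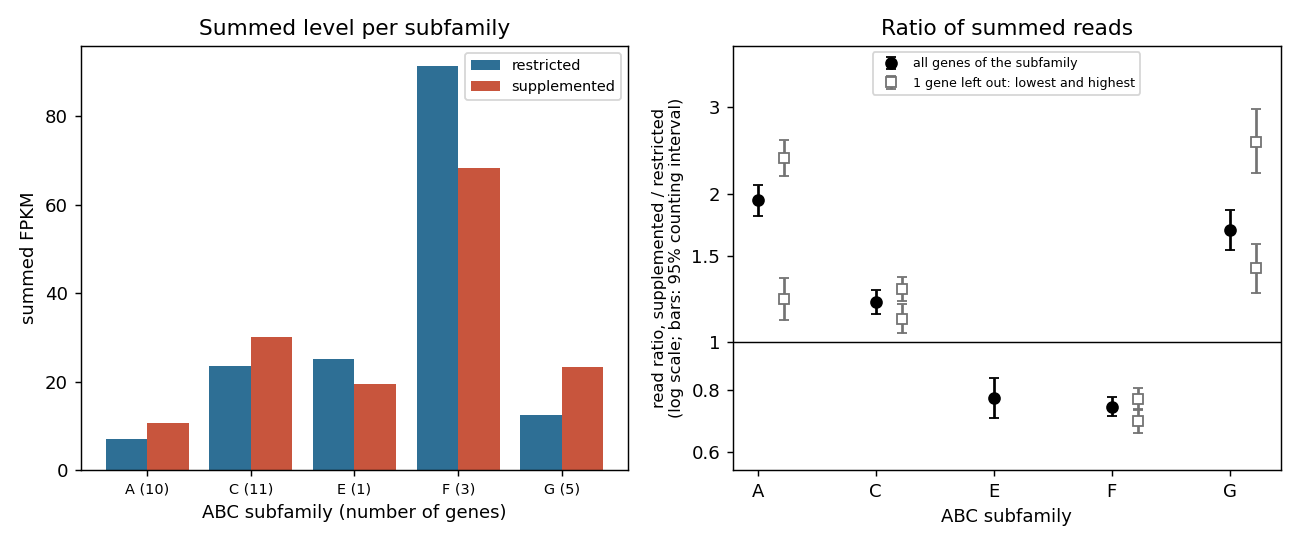
Left, FPKM summed over the genes of ABC subfamilies A, C, E, F and G in the restricted (blue) and supplemented (red) libraries. Right, the ratio of summed reads on a log axis with its 95% counting interval, for all genes of a subfamily (filled circles) and with 1 gene left out in turn, lowest and highest ratio (open squares). Subfamily A falls from 1.94 to 1.23 without ABCA1, and E, a single gene, has no square.

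Of 7 sterol and phospholipid exporters, 4 were measured. By size 1 of these was higher and 0 lower, and 3 had an interval above 1 and 0 below. Over all measured genes 4.59% were higher by size and 2.18% lower, and 21.7% had an interval above 1 and 38.5% below. The largest ratios among these 4 were those of ABCA1 and ABCG1. ABCA1, which loads cholesterol and phospholipid onto lipid-poor apolipoprotein A-I, stood at 1.77 FPKM in the supplemented library and 0.512 FPKM in the restricted one, on 1178 against 352 reads. Its read ratio was 3.46 (3.07 to 3.91). On the log2(FPKM + 1) scale the value was 0.88, short of the size threshold, because the added 1 weighs heavily at this level. The authors' deposited table calls its entry up (q = 0.0272), as it does 0.612% of all entries. The gene lies on chromosome 2 from 18035495 to 18171839 of Oar_v3.1.

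The low FPKM of ABCA1 goes with an unusual transcript model. Scaled reads per unit of FPKM, which grow with the length of the model, were 676 for ABCA1, while the next highest measured member had 165, the lowest had 36.5 and the median was 54.9. A level of ABCA1 relative to other genes therefore depends on that model. The length of the model is shared by both libraries and drops out of their ratio. Whether all reads of the model come from ABCA1 was not tested, and every one of them enters the ratio. An entry without a gene name that overlaps it had 0 reads in both libraries.

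ABCG1, which passes cholesterol on to high-density lipoprotein, stood at 4.10 against 1.33 FPKM, on 173 against 58 reads. That is a read ratio of 3.09 (2.28 to 4.23) and a log2 ratio of 1.13, and 373 of the 10716 measured genes had a higher one. The authors' deposited table does not call it (q = 0.59). It lies on chromosome 1 from 260557091 to 260620669. ABCG4, a close relative of ABCG1 best known from brain, was the most abundant sterol exporter by FPKM, at 8.17 against 6.68 FPKM, a ratio of 1.22 (1.08 to 1.39). That rank depends on the transcript model of ABCA1, which held 1178 against 352 reads where ABCG4 held 541 against 458. ABCB4, the phosphatidylcholine exporter of bile, stood at 2.45 against 2.25 FPKM with an interval that includes 1 (0.767 to 1.37).

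The remaining genes of this role were near the detection floor. ABCA7, a phospholipid exporter linked to phagocytosis, had 24 against 32 reads. ABCG8 had 9 against 14 reads and its sterol-export partner ABCG5 had 1 against 0. Both carry the same locus on chromosome 3, from 80332735 to 80384030, so reads between them may not be assigned surely. A count of 0 allows up to 3 reads, so no ratio is given for ABCG5.

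Partners of this export route were taken from a list of 20 genes around the liver X receptors, the oxysterol sensors that switch on ABCA1 and ABCG1. Of 15 measured genes, 2 were higher by size and 0 lower, and 8 had intervals above 1 and 3 below, beside 4.59% higher and 2.18% lower by size, 21.7% above 1 and 38.5% below among all measured genes. The median log2 ratio was 0.19, against -0.09 over all measured genes. PLTP, a plasma phospholipid transfer protein, stood at 12.3 against 3.55 FPKM, and LIPA, the lysosomal cholesteryl ester hydrolase, at 62.7 against 30.7 FPKM. MYLIP, which degrades the LDL receptor, stood at 14.2 against 7.08 FPKM (log2 ratio 0.92). The receptors themselves differed little, NR1H3 at 4.49 against 3.97 FPKM and NR1H2 at 24.7 against 24.9 FPKM.

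The other subfamily A genes were low in both libraries. ABCA5, ABCA10, ABCA6 and ABCA9, relatives whose substrates are poorly defined, follow each other on chromosome 11 from 60194810 to 60435471. ABCA6 stood at 3.00 against 0.798 FPKM, on 236 against 65 reads, a read ratio of 3.76 (2.85 to 5.03) and a log2 ratio of 1.15. ABCA5 stood at 1.27 against 0.746 FPKM, on 131 against 80 reads, a ratio of 1.70 (1.27 to 2.27). ABCA10 had 15 against 3 reads, a ratio of 5.18 with a wide interval (1.46 to 27.9). ABCA9 had 5 against 2 reads, too few to read a direction, and its interval runs from 0.424 to 27.2. Of the 4 neighbours, ABCA6, ABCA5 and ABCA10 thus had intervals above 1, beside 19.3% of all gene names with reads. ABCA6 and ABCA5 stood under 1 FPKM in the restricted library, and ABCA10 and ABCA9 were not among the measured genes. The next named gene beyond ABCA9, FAM20A, stood at 3.35 against 0.513 FPKM.

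Outside the cluster, ABCA1 was higher, as given above, while ABCA3 and ABCA4 were not. ABCA3, the lipid transporter of lung surfactant bodies, stood at 2.92 against 2.88 FPKM over 4 entries, with a read ratio of 1.02 (0.861 to 1.22). ABCA4, the retinoid transporter of photoreceptors, stood at 1.22 against 1.69 FPKM, on 198 against 284 reads, a ratio of 0.722 (0.599 to 0.868) that turned higher when centred on granulosa cell markers. ABCA12, a skin lipid transporter, had 7 against 10 reads, and ABCA13 had 2 in each library.

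**Figure D4:**
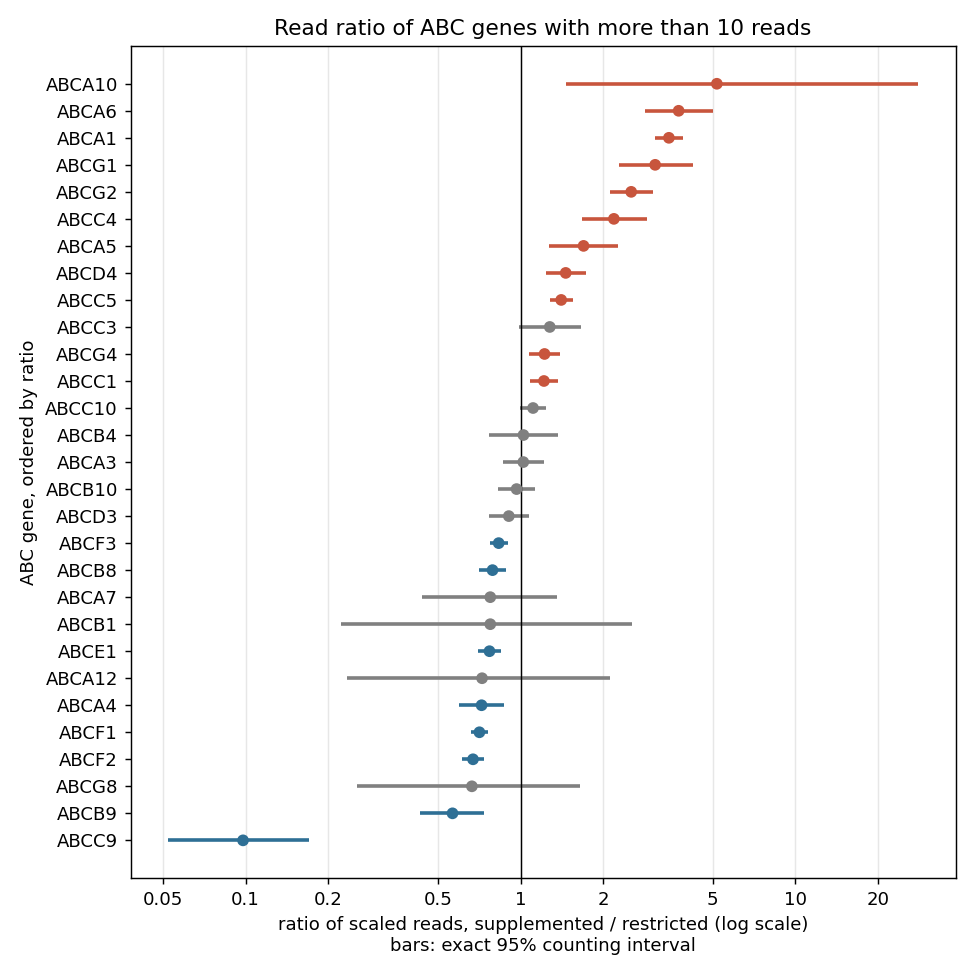
Ratio of scaled reads, supplemented over restricted, for each ABC gene with more than 10 reads in all, on a log axis with its exact 95% counting interval. Red lies wholly above 1, blue wholly below 1 and grey includes 1. ABCC9 is lowest, at 0.0979, and ABCA10, ABCA6 and ABCA1 are highest, at 5.18, 3.76 and 3.46.

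Exporters of drugs, conjugates and organic anions were higher in the supplemented library as a sum, at 41.2 against 26.9 FPKM over 11 genes. Of the 5 measured genes, 2 were higher by size, 4 had an interval above 1 and 0 had one below. Among all measured genes 4.59% were higher by size, 21.7% had an interval above 1 and 38.5% had one below. ABCG2, which exports porphyrins, urate and many drugs, stood at 10.8 against 4.28 FPKM, on 432 against 177 reads. Its read ratio was 2.53 (2.12 to 3.03) and its log2 ratio 1.16. By read ratio it stood behind ABCA6, ABCA1 and ABCG1 among the measured members. The authors' deposited table does not call it (q = 0.541). It lies on chromosome 6 from 36474507 to 36556824, and its neighbours PKD2 and PPM1K stood at 14.7 against 12.5 and 22.7 against 16.2 FPKM.

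ABCC5, an exporter of cyclic nucleotides, was the most abundant gene of this role, at 10.98 against 7.81 FPKM, on 1001 against 737 reads, a ratio of 1.41 (1.28 to 1.55). ABCC1, which exports glutathione conjugates and leukotriene C4, stood at 6.20 against 5.05 FPKM, a ratio of 1.22 (1.08 to 1.37). It was summed over an entry on chromosome 24 with 591 against 515 reads and an entry on chromosome 1 with 59 against 38. ABCC10, a broad drug exporter, stood at 7.95 against 7.16 FPKM, and its interval reached 1 (1.00 to 1.23). Its locus overlaps that of ZNF318.

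ABCC4, which exports cyclic nucleotides and prostaglandins, was assembled from 12 entries that did not behave alike. Summed, it stood at 3.99 against 1.36 FPKM, on 171 against 81 reads, a read ratio of 2.19 (1.67 to 2.88). The entry with the most reads, on chromosome 10 from 69973127 to 70125873, had 54 against 56 reads, a ratio of 0.998 (0.674 to 1.48). The other 10 entries on chromosome 10 lie between 70273671 and 72247225 and held 108 against 24 reads together, a ratio of 4.66 (2.97 to 7.58). Of these, 9 had any read and 8 of the 9 had more in the supplemented library. A further entry on chromosome 3 had 9 against 1 reads. The higher call of ABCC4 therefore came from entries outside the one with the most reads, and whether those entries are parts of 1 gene or near-identical copies was not tested.

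**Figure D5:**
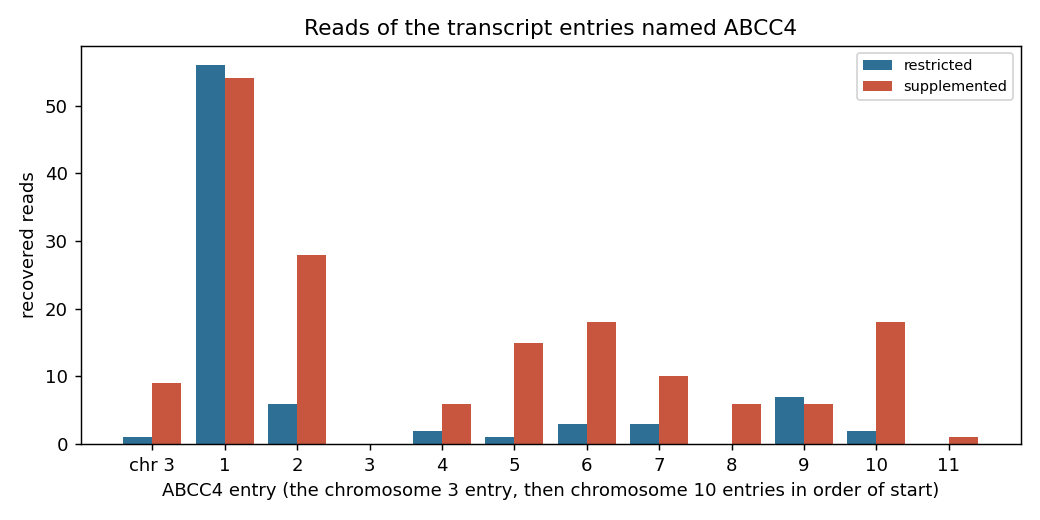
Recovered reads of the 12 transcript entries named ABCC4 in the restricted (blue) and supplemented (red) libraries, the chromosome 3 entry first and the chromosome 10 entries in order of their start. The first chromosome 10 entry has 54 against 56 reads, while the other chromosome 10 entries have 108 against 24 together.

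Other drug exporters were low. ABCC3 stood at 0.798 against 0.625 FPKM, on 137 against 111 reads (0.988 to 1.66). ABCB1, the P-glycoprotein, had 6 against 8 reads and shares an annotated locus with ABCB4 and RUNDC3B. ABCC2, the conjugate exporter of the bile canaliculus, had 3 reads in each library and ABCC6 had 1 in each. ABCC11 and ABCC12 had 0 against 1 read each, and ABCB11, the bile salt exporter of liver, had 1 against 0. Differences of these genes were not detectable at this depth.

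Receptors of foreign compounds and enzymes of conjugation, a list of 17 genes, had 14 measured members. Of these, 1 was higher by size and 0 lower, beside 4.59% and 2.18% of all measured genes. The median log2 ratio of these 14 was 0.12, with 6 intervals above 1 and 3 below. All measured genes had a median of -0.09, with 21.7% of intervals above 1 and 38.5% below. AHR, the receptor for aryl hydrocarbons, stood at 3.81 against 0.712 FPKM, and NQO1, a quinone reductase, at 7.90 against 14.5 FPKM. AHR was the 1 gene higher by size, and it was measured through the supplemented library alone.

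Among the potassium channel regulators, ABCC9 had the lowest read ratio of the ABC genes with more than 10 reads. ABCC9, the sulphonylurea receptor of vascular and muscle channels, stood at 0.150 FPKM in the supplemented library and 1.53 FPKM in the restricted one, on 14 against 148 reads. That is 10.2-fold lower (5.90 to 19.1), and the authors' deposited table calls it down (q = 0.0101), as it does 0.131% of all entries. Its mean of 0.84 FPKM kept it out of the measured genes. It lies on chromosome 3 from 193019254 to 193175462. KCNJ8, the pore subunit that pairs with it and its next named neighbour, had 20 against 28 reads, with an interval that includes 1 (0.395 to 1.36), and KCNJ11, the other pore subunit, had 0 against 1 (both chosen after their values were seen). ABCC8, the sulphonylurea receptor of pancreatic islets, had 5 reads in each library.

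Of the peroxisomal transporters, ABCD3, which takes branched-chain and bile acid precursors into the peroxisome, stood at 6.58 against 7.25 FPKM, with a read ratio of 0.907 whose interval includes 1 (0.765 to 1.07). ABCD2, a fatty acid transporter, had 2 against 4 reads.

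Peroxisome biogenesis and oxidation genes, a list of 21, were mostly near 1. Of 20 measured, 0 were higher and 1 lower by size, 1 had an interval above 1 and 8 below, and the median was -0.11. Over all measured genes 4.59% were higher and 2.18% lower by size, 38.5% of intervals lay below 1 and 21.7% above, and the median was -0.09. The list stood near the whole table in its median and its share below 1, but had a smaller share above 1. The log2 ratio was below 0 in 16 of the 20, against 59.4% of all measured genes. The lower gene was SLC27A2, an acyl-CoA synthetase for very long chains, at 1.54 against 4.26 FPKM, a 2.77-fold lower read ratio (2.32 to 3.32). PEX7, an import receptor, stood at 81.7 against 133 FPKM. PEX19, the chaperone that delivers peroxisomal membrane proteins, stood at 22.8 against 24.7 FPKM.

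The lysosomal members went in opposite directions. ABCD4, which helps move vitamin B12 out of the lysosome, stood at 9.88 against 6.77 FPKM, on 354 against 251 reads, a ratio of 1.46 (1.24 to 1.72). ABCB9, a lysosomal peptide transporter, stood at 1.61 against 2.84 FPKM, on 88 against 161 reads, 1.77-fold lower (1.35 to 2.32), and turned higher when centred on granulosa cell markers (log2 ratio 0.16).

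The mitochondrial transporters ABCB8 and ABCB10 differed little. ABCB8 stood at 12.1 against 15.4 FPKM, a ratio of 0.791 (0.705 to 0.887), and its locus overlaps ATG9B. ABCB10, which is needed for haem synthesis in erythroid cells, stood at 5.06 against 5.23 FPKM with an interval that includes 1 (0.83 to 1.13). ABCB8 was thus lower by its interval as deposited, and turned higher when centred on granulosa cell markers. Haem and iron-sulphur synthesis genes, a list of 18, had 17 measured members with a median of -0.25. Of these, 0 passed the size rule, 10 had an interval below 1 and 0 had one above. Over all measured genes 6.77% passed the size rule, 38.5% had an interval below 1 and 21.7% had one above. GLRX5, a glutaredoxin of iron-sulphur assembly, stood at 88.3 against 133 FPKM.

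ABCE1 and the F genes were the most abundant ABC genes as a role, with a sum of 87.7 against 117 FPKM. They lay on the same side of 1. ABCF3 stood at 29.4 against 35.3 FPKM, a ratio of 0.833 (0.773 to 0.898). ABCF1, which binds initiation factor eIF2 and ribosomes, stood at 23.2 against 32.8 FPKM, a ratio of 0.709 (0.658 to 0.764). ABCF2 stood at 15.6 against 23.2 FPKM, a ratio of 0.672 (0.615 to 0.734). ABCE1, which splits ribosomes after termination, stood at 19.4 against 25.2 FPKM, a ratio of 0.771 (0.702 to 0.847), and its locus overlaps ANAPC10. All 4 intervals lay below 1, beside 38.5% of those of all measured genes. None of the 4 passed the size rule, which 6.77% of all measured genes did. Each of the 4 turned higher when centred on granulosa cell markers, where 91.7% of all measured genes had an interval above 1.

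Ribosome recycling and eIF2 genes, a list of 10, had 8 measured members with a median log2 ratio of -0.44. Of these, 0 passed the size rule, 7 had an interval below 1 and 0 above. Over all measured genes the median was -0.09, 6.77% passed the size rule, and 38.5% of intervals lay below 1 and 21.7% above. EIF2S1 and EIF2S2, subunits of eIF2, stood at 23.2 against 36.8 and 16.3 against 25.1 FPKM. The more abundant EIF2S3, a further subunit, differed little, at 117 against 118 FPKM, a ratio of 0.990 (0.942 to 1.04). HBS1L, a ribosome rescue factor, stood at 11.5 against 16.8 FPKM.

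The ABC proteins that carry other gene names were listed apart. TAP1 and TAP2, which together pump peptides into the endoplasmic reticulum for MHC class I, stood at 23.5 against 26.1 and 24.5 against 28.5 FPKM, with read ratios of 0.901 (0.819 to 0.992) and 0.861 (0.793 to 0.935). CFTR, the chloride channel of subfamily C, had 4 against 16 reads. Of 9 measured peptide loading genes, 0 passed the size rule, 1 had an interval above 1 and 6 below, with a median of -0.26. Over all measured genes 6.77% passed the size rule, 21.7% of intervals lay above 1 and 38.5% below, and the median was -0.09. PSMB8, an immunoproteasome subunit, stood at 76.8 against 40.1 FPKM and CALR, a chaperone, at 541 against 882 FPKM.

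The scraped layer held markers of more than 1 cell type, and their levels differed between the libraries. Over all measured genes 4.59% were higher by size and 2.18% lower, with a median log2 ratio of -0.09. Granulosa cell markers summed to 11459 FPKM in the supplemented library and 26585 FPKM in the restricted one, with 6 of 12 measured genes lower by size, 0 higher and a median of -1.03. Leukocyte markers summed to 922 against 188 FPKM, with 15 of 17 measured genes higher by size, 0 lower and a median of 2.05, and none of the 19 found in the table was at 0 in both libraries. ITGAM, CD2 and CD3D were measured through the supplemented library alone, and over all 19 the median was 2.02. Stromal and smooth muscle markers summed to 1273 against 653 FPKM (5 of 12 higher by size, 0 lower, median 0.60), although LUM, PDGFRA and PDGFRB had intervals below 1. Endothelial markers summed to 26.5 against 8.11 FPKM, with 3 of 4 measured genes higher by size and a median of 1.30. Over all 10 endothelial genes with reads the median was 0.44. EMCN, 1 of the 3, was measured through the supplemented library alone, on 21 against 4 reads. Theca markers summed to 285 against 143 FPKM (2 of 5 higher by size, 0 lower), although LHCGR stood at 11.2 against 23.0 FPKM, 2.05-fold lower in reads (1.83 to 2.31). Erythrocyte markers summed to 15.6 against 8.28 FPKM (1 of 3 higher), and EPB42 held most of that sum, at 8.95 against 6.56 FPKM. The others had few reads: HBB 43 against 10, AHSP 8 against 3, ALAS2 4 against 1 and SLC4A1 0 in both. Oocyte markers summed to 19.6 against 29.3 FPKM (1 of 6 lower). The part of these cell types in the ratios of ABCA1, ABCG1, ABCG2, ABCA6, ABCC4 and ABCC9 was not tested. In a mixed layer, fewer cells of a type and less RNA per cell cannot be told apart, and with 1 library per diet the feed level and the library cannot be told apart.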

How the data were processed

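The authors' scaled read columns are a deposited signal in which counts were divided by a library's own factor. A single read equals 1.02 (supplemented) or 0.983 (restricted). Division by that step gave whole reads, within 0.02, for 98.5% and 98.3% of entries above 0. FPKM columns are the authors', per the file headers, on the same scaling. The p-values and q-values in the authors' deposited table compare the 2 libraries and were not recomputed. Per the submitters' processing notes, TopHat, Cuffdiff and the build Oar_v3.1 were used, and the annotation and strand setting are not given in the sources used here.

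Reads and FPKM were summed per gene name, leaving out entries named uncharacterized. Read ratios have exact Clopper-Pearson 95% intervals (scipy 1.17.1, Python 3.11.15). Intervals and the floor of 3 reads cover counting error only, because PCR reads are not independent molecules. Depth per library limits genes under about 10 reads. Coordinates were written 1-based, since the deposited end less the start was divisible by 3 in 98.9% of the 2000 shortest loci. Of the 39 names, 35 matched a RefSeq symbol of ARS-UI_Ramb_v3.0, and ABCA6, ABCA9, ABCB4 and ABCC4 did not.

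The members, role groups and gene lists were chosen with earlier results of these data known. A further 2 names that met the rule, and 1 gene of a list, are not reported here and stand outside every count and sum of members, and no sum is given for subfamilies that this leaves incomplete. The other members are named, with full values at a mean FPKM of at least 1. Other genes named are the ABC genes under other names and members of the lists, mostly among those with the largest ratios. Not every gene with a large ratio was named, and PEX19 was named with a small one (log2 ratio -0.12). Regulators, subunits, chromosomal neighbours and single cell markers were chosen after their values were seen. Alternatives were pseudocounts, filters, scalings, centring, the most abundant entry per name and the size threshold, and centring on granulosa markers and leaving 1 gene out of a subfamily were added later, with the values seen, as was the most abundant entry for single genes. Intervals and size calls were run on simulated reads that held counting error alone. Such reads cannot show how the calls behave under spread between ewes or libraries. No sequences were used.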

Additional observations from a re-analysis of the deposited data

How the results depend on the processing

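No paired analysis was possible because each diet group has 1 library, and leaving out a replicate is impossible for the same reason. The log2 read ratios of the subfamilies were, as deposited, 0.96 (A), 0.27 (C), -0.37 (E), -0.43 (F) and 0.76 (G). Scaled to the share of all reads they were 1.17, 0.49, -0.16, -0.22 and 0.97, in the same order. Centred on the granulosa markers they were 1.99, 1.31, 0.66, 0.60 and 1.79, so E and F reversed and 5 of these subfamilies were higher in place of 3. Centred on the median of all measured genes C was 0.38 and F -0.33. Trimmed mean scaling gave -0.36 for F, and genes of a mean of at least 1 FPKM gave 0.36 for C. With 1 gene left out in turn, added after seeing the data, the lowest and highest values were 0.29 and 1.24 (A), 0.16 and 0.36 (C), -0.53 and -0.38 (F), and 0.50 and 1.35 (G). The other settings moved none of these subfamilies beyond its interval.

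Intervals above 1 numbered 5 under a filter of 5 mean FPKM and 21 with granulosa centring, in place of 10. That filter leaves fewer members to count, here and in the size calls, and no share of all genes was taken under it. Intervals below 1 numbered 4 by share of all reads and 0 with granulosa centring, in place of 7. Among all measured genes 91.7% lay above 1 and 1.23% below with granulosa centring, and 37.6% above and 21.0% below by share of all reads, so the whole table shifted too. The median ratio of 0.11 became -0.040 under the same filter, -0.0089 with the most abundant entry per name, 0.0015 without a filter, 0.19 centred on all genes, 0.16 with trimmed mean scaling, 0.28 by share of all reads and 0.97 with granulosa centring. Genes higher by size numbered 0 with a pseudocount of 5 or a threshold of 2, 1 under the filter of 5 FPKM and 11 with granulosa centring, in place of 4, where 3735 of 10716 measured genes were higher with that centring and 492 as deposited. Genes lower by size numbered 1 without a filter, in place of 0. With granulosa centring 7 measured genes with an interval below 1 reversed: ABCA4 (0.38), ABCB8 (0.66), ABCB9 (0.16), ABCE1 (0.64), ABCF1 (0.53), ABCF2 (0.44) and ABCF3 (0.75). With the most abundant entry per name ABCC4 went from 1.08 to -0.00099. Under the other pseudocounts and scalings no reported measured gene with an interval off 1 reversed, and the cause of these shifts was not tested. Under 10 reads a gene's direction cannot be read at this depth.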
